A study of Homo sapiens with 2 samples.

Results

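The mRNA of cancer-testis antigen families was measured by RNA-seq in LNCaP, a prostate cancer line that depends on androgen and was derived from a lymph node metastasis. Members were the rows of the expression table whose symbols begin with GAGE, MAGE of the letters A to H, XAGE, PAGE, SSX or CTAG in the form the rule gives, and there were 45 of 12075 listed protein-coding genes. There were 2 groups of 1 library each, LNCaP exposed to CM of M2 macrophages labelled oe-YY1 and LNCaP exposed to CM of M2 macrophages labelled nc-YY1. Both libraries carry the labels genotype WT, time Day 0 and cocultured, and the labels do not spell out oe, nc or CM. M2 names a polarisation state of macrophages, and YY1 binds DNA through zinc fingers and can activate or repress transcription. The labels' treatment text, the same for both libraries, describes insulin-induced adipogenic differentiation, and whether it was applied to these cells is not stated. The series title names YY1 in macrophages of prostate tumours. With 1 library per group no difference below has a replicate check or a p-value, and differences between these libraries are not shown to be differences between the conditions.

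Cancer-testis antigens are proteins made mainly by germ cells of the testis, where they are encoded in large part by families of recently copied genes on the X chromosome. In most other adult tissues their promoters are methylated and silent, and many tumours express them again. Peptides of these proteins are shown on MHC class I and can be recognised by T cells, which is why several are targets of tumour vaccines and engineered T cells. The MAGE-A genes belong to this class, whereas the MAGE-D, MAGE-E and MAGE-F genes are MAGE relatives expressed widely in normal tissue. GAGE, PAGE and XAGE proteins are small, acidic and related to each other.

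Values were deposited as FPKM, fragments scaled to transcript length and library size, and the number of reads behind them is unknown. A log2 ratio is log2(FPKM + 1) in the oe-YY1 library minus that in the nc-YY1 library. Adding 1 shrinks the ratio of genes at low level. Genes called higher or lower differ by 2-fold or more on this scale. All 45 members reached 1 FPKM in the higher library, and 44 did so in both libraries. The exception was CTAGE6. Of the 45 members 37 lie on chromosome X, at positions printed as deposited, for which the build GRCh37 is inferred from the identifiers. GENCODE 29 (GRCh38) holds 76 protein-coding symbols of the rule, of which 39 were not analysed here, among them the MAGE-B and MAGE-C genes and the SSX genes. The pattern for SSX matched SSX2IP alone, which encodes a centrosomal protein that binds SSX2 and is no SSX gene, and it stood at 6.53 FPKM in the oe-YY1 library and 6.89 FPKM in the nc-YY1 library. The pattern for CTAG also matched 6 CTAGE genes, which are a separate family and are described apart.

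The lineage markers of LNCaP were present in both libraries. All 15 prostate luminal markers were measured. By 2-fold or more 7 were lower and 2 higher in the oe-YY1 library, against 5.83% and 6.46% of all genes of at least 1 FPKM. KLK2, a kallikrein protease, stood at 12.7 FPKM in oe-YY1 and 93.4 FPKM in nc-YY1, SLC45A3 at 12.1 FPKM in oe-YY1 and 68.0 FPKM in nc-YY1 and TMPRSS2 at 9.22 FPKM in oe-YY1 and 49.3 FPKM in nc-YY1. Of 20 macrophage markers 4 were measured, summing to 121 FPKM in the oe-YY1 library and 90.5 FPKM in the nc-YY1 library, of which LCP1 held 114 FPKM in oe-YY1 and 89.9 FPKM in nc-YY1. ITGAM stood at 2.34 FPKM in oe-YY1 and 0.00787 FPKM in nc-YY1 and CD68 at 4.18 FPKM in oe-YY1 and 0.632 FPKM in nc-YY1. Both reached 1 FPKM in the oe-YY1 library alone and could only be higher there. The part of other cells in the values below was not tested. CD14, CD163, PTPRC and CSF1R were not analysed here. Of 18 germ cell markers 3 were measured, with ODF2, a sperm tail and centrosome protein, at 7.59 FPKM in oe-YY1 and 8.41 FPKM in nc-YY1, and POU5F1, a pluripotency factor of germ cells, at 2.02 FPKM in oe-YY1 and 1.30 FPKM in nc-YY1. NANOS3 was below 1 FPKM in both libraries, and the median log2 ratio of the other 2 was 0.13. In such bulk libraries fewer expressing cells and less RNA per cell cannot be told apart.

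Values of the members differed by family. All GAGE, PAGE and XAGE members were lower in the oe-YY1 library, the abundant MAGE-A members were level or slightly higher, and the CTAGE genes were all higher. At the 2-fold rule 1 member, CTAGE5, was higher and 0 were lower, against 6.46% of all 11126 genes higher and 5.83% lower. At 1.5-fold, the size used in the authors' tables, 4 members were higher (8.89% of members, against 15.3% of all genes) and 7 were lower (15.6%, against 15.2%). The share of members past 1.5-fold in the lower direction is therefore near the background. Of the 45 members 31 had a log2 ratio below 0, or 68.9%, against 50.8% of all genes, and the median log2 ratio was -0.46 over members and -0.01 over all genes. Many members are copies whose reads may be divided among them, so they are not 45 independent values. Among the 377 chromosome X genes outside the members the median was -0.02, with 5.84% higher and 5.57% lower by 2-fold, and 14.9% higher and 15.1% lower by 1.5-fold. The 11 members past 1.5-fold are also those in the authors' deposited table. Its log2 fold changes equal the log2 ratios used here, so this is no separate check. CTAGE5, CTAGE15, MAGED4B and MAGEA10 were listed there as higher and MAGEA1, GAGE10, GAGE2C, GAGE12H, MAGED2, GAGE2D and GAGE1 as lower.

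**Figure D1:**
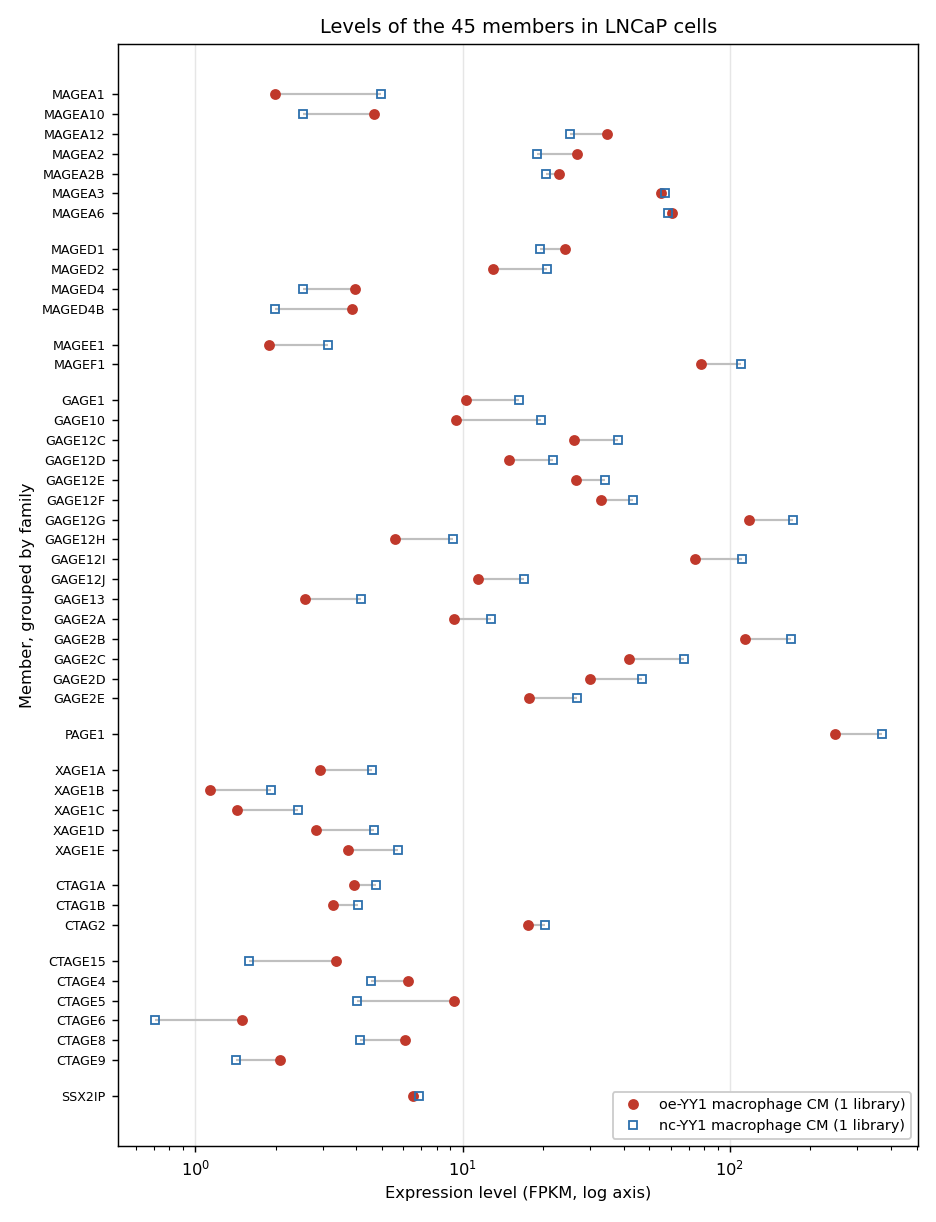
Level of each of the 45 members in FPKM on a log axis, with a filled circle for the oe-YY1 library, an open square for the nc-YY1 library and a line joining the pair. The GAGE, PAGE and XAGE circles all lie left of their squares, the CTAGE circles all lie right of theirs, and MAGEA3 and MAGEA6 nearly coincide.

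PAGE1, a small X-linked antigen of the P antigen family (ENSG00000068985.4_2, chromosome X, 49452053 to 49460596, minus strand), was the most abundant member. It stood at 248 FPKM in the oe-YY1 library and 371 FPKM in the nc-YY1 library, a log2 ratio of -0.58. That was rank 72 of all listed genes in the oe-YY1 library and rank 51 in the nc-YY1 library. PAGE1 lies next to the GAGE array and shared none of its 50-base stretches of transcript with another gene in GENCODE 29. Its ratio of FPKM was 0.669, against 0.674 for the GAGE sum.

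The 16 GAGE members lie in an array on the short arm of chromosome X, from 49160148 to 49460596 together with PAGE1. They encode nearly the same small protein, first described as an antigen of melanoma. Summed, they stood at 545 FPKM in the oe-YY1 library and 809 FPKM in the nc-YY1 library, a ratio of 0.674 and a log2 ratio of -0.57. This was 0.275% of all FPKM in the oe-YY1 library and 0.374% in the nc-YY1 library. All 16 copies were lower in the oe-YY1 library, with log2 ratios from -0.98 to -0.35 and a median of -0.55. Since these copies share most of their sequence, these are not 16 separate observations.

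3 copies carried most of the GAGE signal. GAGE12G stood at 118 FPKM in the oe-YY1 library and 172 FPKM in the nc-YY1 library. GAGE2B stood at 114 FPKM in the oe-YY1 library and 169 FPKM in the nc-YY1 library. GAGE12I stood at 74.3 FPKM in the oe-YY1 library and 111 FPKM in the nc-YY1 library. Together these 3 held 56.2% of the GAGE sum in the oe-YY1 library and 55.8% in the nc-YY1 library, so the division among copies was nearly the same in both. The 5 GAGE2 copies summed to 213 FPKM in oe-YY1 and 322 FPKM in nc-YY1 (ratio 0.660) and the 8 GAGE12 copies to 310.1 FPKM in oe-YY1 and 447 FPKM in nc-YY1 (ratio 0.694). Copies of middle level were GAGE12F at 32.9 FPKM in oe-YY1 and 43.4 FPKM in nc-YY1, GAGE12E at 26.6 FPKM in oe-YY1 and 34.1 FPKM in nc-YY1, GAGE12C at 26.2 FPKM in oe-YY1 and 38.3 FPKM in nc-YY1, and GAGE2D at 29.9 FPKM in oe-YY1 and 46.7 FPKM in nc-YY1. Below them stood GAGE2E at 17.8 FPKM in oe-YY1 and 26.9 FPKM in nc-YY1, GAGE12D at 14.9 FPKM in oe-YY1 and 21.7 FPKM in nc-YY1, and GAGE12J at 11.4 FPKM in oe-YY1 and 16.97 FPKM in nc-YY1. Under 10 FPKM in oe-YY1 stood GAGE2A at 9.30 FPKM in oe-YY1 and 12.8 FPKM in nc-YY1 and GAGE12H at 5.56 FPKM in oe-YY1 and 9.18 FPKM in nc-YY1. The lowest copy was GAGE13, at 2.58 FPKM in oe-YY1 and 4.18 FPKM in nc-YY1.

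GAGE10 stood apart from the other copies. It stood at 9.46 FPKM in the oe-YY1 library and 19.6 FPKM in the nc-YY1 library, a log2 ratio of -0.98, just short of 2-fold. The next copy, GAGE2C, stood at 41.8 FPKM in oe-YY1 and 67.1 FPKM in nc-YY1, a log2 ratio of -0.67. Without GAGE10 the sum of the other 15 copies gave a ratio of 0.679. Of the 50-base stretches of GAGE10 46.0% also occur in another gene's transcripts in GENCODE 29, against 100% for GAGE12C, GAGE12D, GAGE12E and GAGE12G, 85.2% for GAGE2A and 13.7% for GAGE1. GAGE1, at 10.3 FPKM in oe-YY1 and 16.3 FPKM in nc-YY1 (log2 ratio -0.61), overlaps GAGE2A on the same strand, as GAGE12E and GAGE12F overlap each other. Of the 16 copies 6 have identifiers that GENCODE 29 does not hold, GAGE12I and GAGE2B among them, and their uniqueness was not measured.

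The coding sequences of GAGE12G, the most abundant copy, and of GAGE10 are given from GENCODE 29 (GRCh38, chromosome X, plus strand, without the stop codon) to show how few bases tell the copies apart. Bases 1 to 300 of GAGE12G and the stretch of GAGE10 aligned to them, bases 1 to 297, are printed. Capitals mark bases with no equal partner in the alignment, and over the whole coding sequence there are 17 of 351 in GAGE12G and 14 of 348 in GAGE10. Over all 45 pairs of the 10 copies compared, coding identity ran from 94.6% to 100%, with a median of 98.9%.
GAGE12G: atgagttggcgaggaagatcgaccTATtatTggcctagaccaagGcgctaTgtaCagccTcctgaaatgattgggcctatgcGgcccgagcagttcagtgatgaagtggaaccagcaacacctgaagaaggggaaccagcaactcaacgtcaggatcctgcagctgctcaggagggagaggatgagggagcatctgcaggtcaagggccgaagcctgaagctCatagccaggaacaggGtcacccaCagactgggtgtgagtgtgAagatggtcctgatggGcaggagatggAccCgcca
GAGE10: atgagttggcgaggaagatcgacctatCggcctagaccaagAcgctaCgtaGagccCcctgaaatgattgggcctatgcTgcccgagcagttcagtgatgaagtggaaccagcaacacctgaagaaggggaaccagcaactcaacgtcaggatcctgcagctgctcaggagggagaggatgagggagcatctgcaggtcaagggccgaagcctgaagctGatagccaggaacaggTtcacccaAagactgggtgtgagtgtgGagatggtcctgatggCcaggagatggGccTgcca

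**Figure D2:**
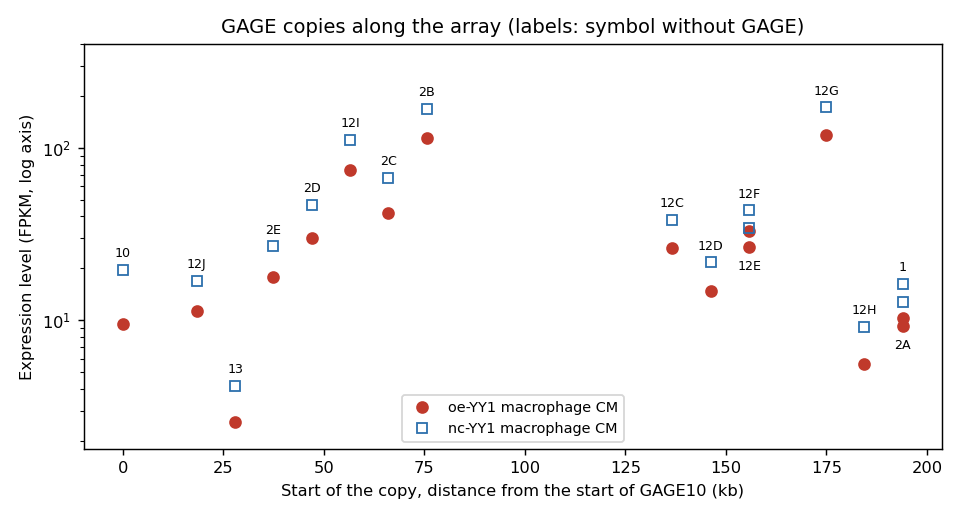
Level of the 16 GAGE copies in FPKM on a log axis against the distance of each start from that of GAGE10 in kb, with filled circles for the oe-YY1 library and open squares for the nc-YY1 library. Each circle lies below its square, by the largest step at GAGE10, and levels differ far more between copies than between libraries.

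The 5 XAGE members are listed copies of XAGE1, an antigen related to GAGE and expressed in several tumours. They stood at 1.13 to 3.72 FPKM in the oe-YY1 library and 1.92 to 5.75 FPKM in the nc-YY1 library, and summed to 12.04 FPKM in oe-YY1 and 19.4 FPKM in nc-YY1, a ratio of 0.621. XAGE1E was the highest, at 3.72 FPKM in oe-YY1 and 5.75 FPKM in nc-YY1, and XAGE1B the lowest, at 1.13 FPKM in oe-YY1 and 1.92 FPKM in nc-YY1. Between them lay XAGE1A at 2.93 FPKM in oe-YY1 and 4.60 FPKM in nc-YY1, XAGE1D at 2.83 FPKM in oe-YY1 and 4.68 FPKM in nc-YY1, and XAGE1C at 1.43 FPKM in oe-YY1 and 2.42 FPKM in nc-YY1. The log2 ratios of the copies ran from -0.57 to -0.46. All 5 copies are of low level, and the lowest value that any listed gene has in its higher library is 0.50 FPKM. GENCODE 29 holds XAGE1A and XAGE1B by identifier, with identical coding sequences, and not the other 3.

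The 7 MAGE-A members differed among themselves. These genes encode proteins with the MAGE homology domain, which bind RING ubiquitin ligases such as TRIM28, and together they stood at 207 FPKM in the oe-YY1 library and 188 FPKM in the nc-YY1 library, a ratio of 1.10. MAGEA3 (ENSG00000221867.4, chromosome X, 151934652 to 151938240, minus strand), a target of tumour vaccines, stood at 55.4 FPKM in the oe-YY1 library and 57.3 FPKM in the nc-YY1 library. MAGEA6, whose coding sequence is 98.1% identical to that of MAGEA3, stood at 60.7 FPKM in the oe-YY1 library and 58.6 FPKM in the nc-YY1 library. The sum of this pair was 116.1 FPKM in oe-YY1 and 115.9 FPKM in nc-YY1, a log2 ratio of 0.00, and the pair held 56.1% of the MAGE-A sum in the oe-YY1 library and 61.6% in the nc-YY1 library. Of the 50-base stretches of MAGEA3 and MAGEA6, 56.5% and 56.4% are shared with another gene.

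MAGEA2, MAGEA2B and MAGEA12, close relatives of that pair, were higher in the oe-YY1 library by less than 1.5-fold. MAGEA2 stood at 26.8 FPKM in the oe-YY1 library and 19.0 FPKM in the nc-YY1 library (log2 ratio 0.47), and MAGEA2B, with the same coding sequence, at 22.9 FPKM in oe-YY1 and 20.5 FPKM in nc-YY1 (0.15). MAGEA12 stood at 34.6 FPKM in the oe-YY1 library and 25.2 FPKM in the nc-YY1 library (log2 ratio 0.44). Nearly all of the transcript sequence of MAGEA2 and MAGEA2B is shared, so the division between them is uncertain. Their sum was 49.7 FPKM in oe-YY1 and 39.6 FPKM in nc-YY1, a log2 ratio of 0.32.

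MAGEA1 and MAGEA10, whose coding sequences are at most 81.2% and 65.0% identical to that of any other listed MAGE-A member, were the lowest and the highest of the family by ratio. MAGEA1, the founding member of the family (ENSG00000198681.6_3, chromosome X, 152481520 to 152486115, minus strand), stood at 1.99 FPKM in the oe-YY1 library and 4.95 FPKM in the nc-YY1 library, a log2 ratio of -0.99. MAGEA10 (ENSG00000124260.11_4, chromosome X, 151301782 to 151307050, minus strand) stood at 4.68 FPKM in the oe-YY1 library and 2.54 FPKM in the nc-YY1 library, a log2 ratio of 0.68. Of the 50-base stretches of MAGEA1 0.662% are shared with another gene, of those of MAGEA10 17.3% and of those of MAGEA12 13.8%. Both genes lie below 5 FPKM in both libraries, where the number of reads is unknown and no error can be given. CSAG1, another cancer-testis gene, which lies between MAGEA12 and MAGEA2 in the same cluster, stood at 36.1 FPKM in the oe-YY1 library and 52.0 FPKM in the nc-YY1 library (log2 ratio -0.51), in the opposite direction to those neighbours. GABRA3, a receptor subunit gene within the cluster, stood at 1.30 FPKM in oe-YY1 and 0.906 FPKM in nc-YY1.

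**Figure D3:**
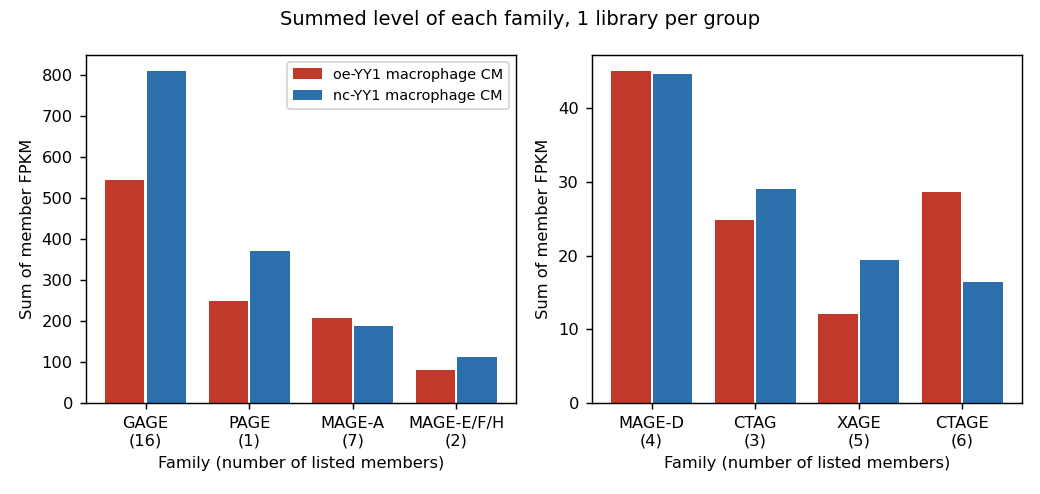
Sum of member FPKM in each family, with the oe-YY1 library as the left bar and the nc-YY1 library as the right bar of each pair, and the number of listed members in brackets. GAGE, PAGE, XAGE, CTAG and MAGE-E/F/H sums are lower in the oe-YY1 library, MAGE-A and CTAGE sums are higher, and the MAGE-D sum is level, on a different vertical scale in each panel.

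The start regions of MAGEA3 and MAGEA6 and of the GAGE and PAGE1 genes were compared. Those printed are PAGE1, the most abundant GAGE copy, the GAGE copy with the lowest log2 ratio and the most abundant MAGE-A pair. The 250 bases before the transcript start are given from RefSeq (GRCh38.p14), 5′ to 3′ on the strand of the gene. They lie at chrX:49695985-49696234 (minus strand) for PAGE1, chrX:49570147-49570396 (plus) for GAGE12G, chrX:49303396-49303645 (plus) for GAGE10, chrX:152698544-152698793 (plus) for MAGEA3 and chrX:152769690-152769939 (minus) for MAGEA6. Capitals mark matches to CCGGAA on either strand, the core of Ets factor sites known from MAGE-A promoters, and to GGGCGG on either strand, the GC box, of which these 5 windows hold none.
PAGE1: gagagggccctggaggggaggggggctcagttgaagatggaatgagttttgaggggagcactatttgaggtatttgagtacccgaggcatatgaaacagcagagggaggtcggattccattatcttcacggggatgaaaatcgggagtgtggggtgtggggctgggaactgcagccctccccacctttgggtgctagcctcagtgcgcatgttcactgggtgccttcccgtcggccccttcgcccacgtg
GAGE12G: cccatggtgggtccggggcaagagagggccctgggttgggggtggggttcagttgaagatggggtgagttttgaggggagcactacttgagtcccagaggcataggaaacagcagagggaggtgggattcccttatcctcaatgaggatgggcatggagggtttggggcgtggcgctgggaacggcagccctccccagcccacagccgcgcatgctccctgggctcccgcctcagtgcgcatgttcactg
GAGE10: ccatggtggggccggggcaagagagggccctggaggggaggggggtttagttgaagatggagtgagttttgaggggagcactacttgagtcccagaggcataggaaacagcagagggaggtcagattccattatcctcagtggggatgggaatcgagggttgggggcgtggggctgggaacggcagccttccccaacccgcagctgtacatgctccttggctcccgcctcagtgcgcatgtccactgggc
MAGEA3: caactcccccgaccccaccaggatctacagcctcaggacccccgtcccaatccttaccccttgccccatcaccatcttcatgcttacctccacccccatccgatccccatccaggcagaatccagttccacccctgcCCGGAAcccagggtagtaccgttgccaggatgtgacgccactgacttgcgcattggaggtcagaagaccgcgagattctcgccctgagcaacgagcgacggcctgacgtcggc
MAGEA6: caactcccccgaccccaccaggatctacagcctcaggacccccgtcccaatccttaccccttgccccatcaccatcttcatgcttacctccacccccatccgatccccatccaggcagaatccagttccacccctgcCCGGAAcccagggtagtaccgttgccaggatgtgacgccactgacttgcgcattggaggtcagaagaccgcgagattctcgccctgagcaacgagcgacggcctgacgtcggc

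The MAGEA3 and MAGEA6 windows are identical over all 250 bases, and GAGE12G is 88.2% identical to GAGE10 and 67.7% to PAGE1. Among 55 pairs of GAGE windows the median identity was 100%. The lowest was 85.7%, between GAGE10 and GAGE1, which has more than 1 start, so its values depend on the start taken. Among pairs without GAGE1 the lowest was 88.2%, between GAGE10 and GAGE12G. Whether likeness of windows and of log2 ratios goes together was not tested. MAGEA2 and MAGEA2B, with log2 ratios of 0.47 and 0.15, have windows that are 100% identical. The division of reads between these 2 copies is uncertain, so the pair cannot decide this. XAGE1A and XAGE1B each have more than 1 start. Their identity of 56.7%, and that of 58.2% between GAGE12G and XAGE1A, compare 1 start of each gene and depend on the start taken. Neither value shows how far the sequences themselves differ. The 7 MAGE-A windows come from 5 genes, since MAGEA2 and MAGEA12 have more than 1 start and MAGEA1 and MAGEA10 matched none. Of these windows 2, those of MAGEA3 and MAGEA6, hold CCGGAA and 0 hold GGGCGG, while of 12 GAGE windows, from 11 genes, 0 hold either, against 14.5% of all 35116 windows for CCGGAA and 42.6% for GGGCGG. The windows of the MAGE-D genes, which are expressed widely, held GGGCGG in 6 of 7, from 4 genes. The CpG dinucleotide, the site of DNA methylation, occurs 7 or 8 times in the GAGE windows, 9 times in that of PAGE1 and 15 times in those of MAGEA3 and MAGEA6, against a median of 11 over all windows. Of the 45 members 31 matched a sequence by symbol, some with more than 1 start. Methylation was not measured, and a match or its absence describes these letters alone.

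CTAG1A, CTAG1B and CTAG2 were slightly lower in the oe-YY1 library. CTAG1A and CTAG1B encode NY-ESO-1 with identical coding sequences, and CTAG2 encodes LAGE-1, 92.6% identical to them. CTAG2 stood at 17.6 FPKM in the oe-YY1 library and 20.3 FPKM in the nc-YY1 library, with CTAG1A at 3.91 FPKM in oe-YY1 and 4.73 FPKM in nc-YY1 and CTAG1B at 3.27 FPKM in oe-YY1 and 4.06 FPKM in nc-YY1. The CTAG1 pair summed to 7.19 FPKM in oe-YY1 and 8.79 FPKM in nc-YY1. The family sum was 24.8 FPKM in oe-YY1 and 29.1 FPKM in nc-YY1, a ratio of 0.852, and the log2 ratios of the genes ran from -0.24 to -0.20.

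The MAGE relatives of wide expression went in both directions. MAGEF1, an intronless gene on chromosome 3 whose protein steers a ubiquitin ligase to the iron-sulfur assembly factor MMS19, stood at 78.1 FPKM in the oe-YY1 library and 109.8 FPKM in the nc-YY1 library (log2 ratio -0.49). MAGED2, which acts in renal salt transport before birth, stood at 13.0 FPKM in the oe-YY1 library and 20.7 FPKM in the nc-YY1 library (log2 ratio -0.63). MAGED1, an adaptor that binds the neurotrophin receptor p75, stood at 24.2 FPKM in the oe-YY1 library and 19.4 FPKM in the nc-YY1 library (log2 ratio 0.30). MAGED1 and MAGED2 therefore changed order, MAGED2 being the more abundant in the nc-YY1 library and MAGED1 in the oe-YY1 library. Both of a further pair were higher in the oe-YY1 library, MAGED4 at 3.95 FPKM in oe-YY1 and 2.53 FPKM in nc-YY1 and MAGED4B at 3.87 FPKM in oe-YY1 and 1.99 FPKM in nc-YY1. MAGED4 and MAGED4B, copies with identical coding sequence, summed to 7.82 FPKM in oe-YY1 and 4.52 FPKM in nc-YY1, a ratio of 1.73. MAGEE1, a protein of the dystrobrevin complex, stood at 1.89 FPKM in oe-YY1 and 3.14 FPKM in nc-YY1.

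The CTAGE genes were higher in the oe-YY1 library in all 6 rows. CTAGE5 (ENSG00000150527.17_4, chromosome 14, 39699435 to 39857717, plus strand), which GENCODE 29 names MIA2 under the same identifier, encodes a protein of endoplasmic reticulum exit sites that helps export large cargo. It stood at 9.30 FPKM in the oe-YY1 library and 4.01 FPKM in the nc-YY1 library, a log2 ratio of 1.04, the highest of the members. The other 5 are copies on chromosomes 6 and 7 whose coding sequences are at least 90.1% identical to that of CTAGE5, and they summed to 19.3 FPKM in oe-YY1 and 12.4 FPKM in nc-YY1, a ratio of 1.56. CTAGE4 stood at 6.22 FPKM in oe-YY1 and 4.52 FPKM in nc-YY1, and CTAGE8, 99.8% identical to it, at 6.09 FPKM in oe-YY1 and 4.15 FPKM in nc-YY1. CTAGE15 stood at 3.37 FPKM in the oe-YY1 library and 1.59 FPKM in the nc-YY1 library, and CTAGE6, 99.7% identical to CTAGE15, at 1.496 FPKM in oe-YY1 and 0.704 FPKM in nc-YY1. The ratio of FPKM was 2.12 for both of this pair, whose reads may be divided between them. The remaining copy was CTAGE9 at 2.07 FPKM in oe-YY1 and 1.42 FPKM in nc-YY1. Of the 50-base stretches of the 5 copies 84.2% (CTAGE9) to 100% (CTAGE8) are shared with another gene, against 4.21% for CTAGE5. The 5 copies are therefore not separate observations.

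The log2 ratio moved with transcript length over all genes, and the families differ in length. Length was taken as the median of the basic protein-coding transcripts of a gene in GENCODE 29, which gave a value for 36 members and for 98.9% of all genes tested. Among other genes with transcripts under 700 bases the median log2 ratio was -0.43 (341 genes), among those of 700 to under 1000 bases -0.34, of 1500 to under 2500 bases -0.09, of 2500 to under 4000 bases 0.07 and of 4000 bases or more 0.21. Of the 341 short genes 34.3% were lower by 1.5-fold or more in the oe-YY1 library, against 15.2% of all genes. The members under 700 bases, which are GAGE copies, PAGE1, XAGE1A and XAGE1B, had a median log2 ratio of -0.52 (12 members). Relative to the median of other genes of like length, the log2 ratio was -0.14 for the GAGE sum, -0.15 for PAGE1 and -0.21 for the XAGE sum. These sums include 6 GAGE and 3 XAGE copies without a length, and GAGE1, whose 768 bases place it in another class. A sum also takes the added 1 once, so its log2 ratio is shrunk less than that of each copy at low level. The ratio of FPKM was 0.621 for the XAGE sum, 0.638 for XAGE1A and 0.588 for XAGE1B. XAGE1A and XAGE1B by themselves lay at -0.08 and -0.03 relative to the class median of -0.43, which is not split by level. By mean FPKM, other short genes at 1 to under 10 FPKM had a median log2 ratio of -0.10 (109 genes). It was -0.52 at 10 to under 100 FPKM (160 genes) and -0.44 at 100 FPKM or more (64 genes). XAGE1A (log2 ratio -0.51) and XAGE1B (-0.46) stood below 10 FPKM in both libraries and lay below the median of -0.10. Log2 ratios in that level group ran from -2.79 to 3.34. Of the 341 other short genes 35.8% had a log2 ratio as low as the GAGE sum, 34.3% one as low as PAGE1 and 10.9% one as low as GAGE10. The part of transcript length in the family values was not tested beyond these figures.

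Several longer members lay away from genes of like length. MAGEA1 lay 0.90 below the median of other genes of 1500 to under 2500 bases, where 7.38% had a log2 ratio as low. MAGED2 lay 0.54 below that median, where 15.0% were as low, and MAGEE1 0.59 below the median of its class, where 13.8% were. CTAGE5 lay 0.97 above the median of other genes of 2500 to under 4000 bases, where 7.05% had one as high, and MAGED4B 0.63 and MAGEA10 0.61 above it, where 13.7% and 14.1% had one as high. These places describe 1 library against 1.

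**Figure D4:**
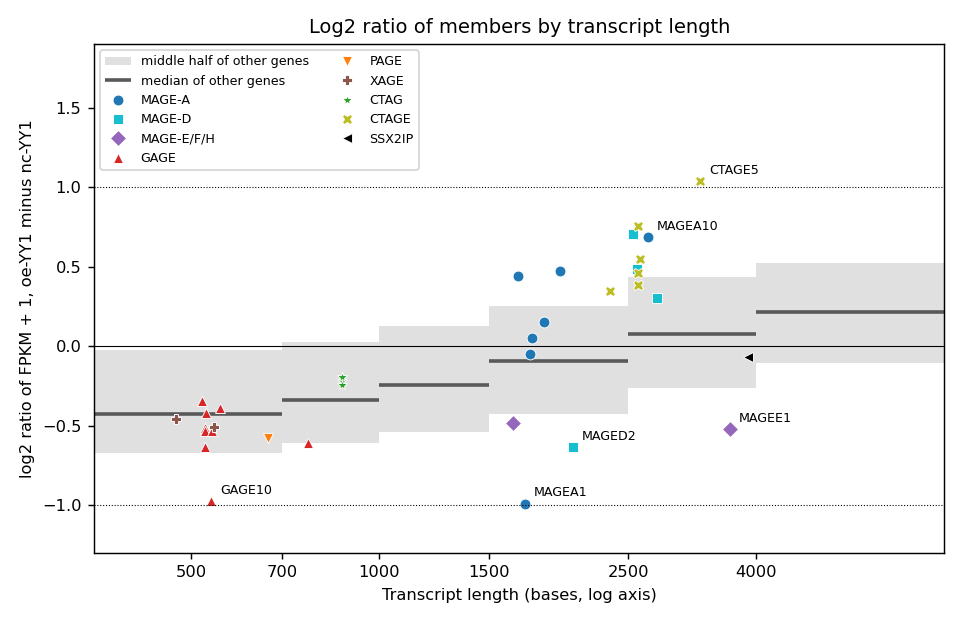
Log2 ratio of FPKM + 1, oe-YY1 minus nc-YY1, of the 36 members with a length against transcript length in bases on a log axis. Grey bands give the middle 50% and dark lines the median of other genes in each length class, and dotted lines mark 2-fold. Except GAGE10, the GAGE, PAGE and XAGE members under 700 bases sit near the line of their class, at -0.43. MAGEA1, MAGED2 and MAGEE1 sit below and the CTAGE genes above the lines of theirs. The lines are not split by level. XAGE1A and XAGE1B lie below the median of -0.10 for other short genes of 1 to under 10 FPKM mean.

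Listed genes around the clusters had mixed values. The 10 listed genes flanking the GAGE array and PAGE1 had log2 ratios from -0.64 to 0.27 with a median of -0.13, the 10 around the XAGE1 copies a median of 0.02, and the 10 around the CTAG genes a median of -0.41 with a range from -1.61 to 1.51. The 10 around the MAGE-A cluster had a median of -0.46, whereas the MAGE-A members had a median of 0.15.

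Other cancer-testis genes outside these families were mixed. Of 125 such symbols 30 were measured and 20 reached 1 FPKM in the higher library. Of these 20, 3 passed 2-fold upward and 1 downward, against 6.46% and 5.83% of all genes. Their median log2 ratio was 0.25. KDM5B, a histone H3K4 demethylase with high expression in testis, stood at 9.95 FPKM in the oe-YY1 library and 4.08 FPKM in the nc-YY1 library. SPAG1, a dynein assembly factor of cilia and sperm, stood at 7.69 FPKM in oe-YY1 and 3.29 FPKM in nc-YY1. THEG, a spermatid protein, at 2.36 FPKM in oe-YY1 and 0.0571 FPKM in nc-YY1, and BRDT, a bromodomain protein of spermatogenesis, at 0.235 FPKM in oe-YY1 and 1.47 FPKM in nc-YY1, each passed the filter through 1 library and could only go the way they went. PRAME, an antigen of melanoma that is used as a T cell target, stood at 27.2 FPKM in oe-YY1 and 19.3 FPKM in nc-YY1, higher by less than 1.5-fold. The cancer-testis genes that act in mitosis had other values. All 9 measured passed 2-fold downward in the oe-YY1 library (median log2 ratio -2.36), against 5.83% of all genes. Some of the 9 reached 1 FPKM in the nc-YY1 library alone and could only be lower in oe-YY1. Over those of at least 1 FPKM in both libraries the median was also -2.36. PBK, a mitotic kinase, stood at 3.88 FPKM in oe-YY1 and 33.5 FPKM in nc-YY1. HMMR, a spindle protein, stood at 2.33 FPKM in oe-YY1 and 17.8 FPKM in nc-YY1. OIP5, a centromere protein, stood at 3.34 FPKM in oe-YY1 and 21.5 FPKM in nc-YY1. CEP55, a protein of cell abscission, stood at 1.34 FPKM in oe-YY1 and 11.0 FPKM in nc-YY1. The 9 genes also belong to the wider set of cell cycle genes.

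A list of genes of DNA methylation and heterochromatin held writers and readers of these marks, and also genes that remove methylation, such as TET2, TET3 and TDG, and CTCF, an insulator factor. Of 36 measured, 0 passed 2-fold upward and 1 downward, and 35 lay within 2-fold, as did 9758 of all 11126 genes. Their median log2 ratio was -0.15. UHRF1, which brings the maintenance methyltransferase to newly copied DNA, stood at 1.74 FPKM in the oe-YY1 library and 9.76 FPKM in the nc-YY1 library. DNMT1, that methyltransferase, stood at 7.12 FPKM in oe-YY1 and 11.6 FPKM in nc-YY1. Among 29 tested partners and relatives of MAGE proteins 2 passed 2-fold upward and 1 downward, against 6.46% and 5.83% of all genes. The median log2 ratio of the 29 was 0.08. PRKAA1, a catalytic subunit of the energy sensor AMPK that MAGE-A3 and MAGE-A6 with TRIM28 mark for degradation, stood at 40.8 FPKM in the oe-YY1 library and 18.5 FPKM in the nc-YY1 library. UNC5A, a netrin receptor that MAGED1 binds, stood at 0.282 FPKM in oe-YY1 and 1.68 FPKM in nc-YY1 and passed the filter through the nc-YY1 library alone. TRIM28, the ligase partner of MAGE-A proteins, stood at 40.3 FPKM in oe-YY1 and 58.1 FPKM in nc-YY1 (log2 ratio -0.52).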

How the data were processed

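RNA-seq was deposited for 2 libraries of LNCaP cells, 1 per group. The authors deposited FPKM values; the submitters' processing notes name StringTie 2.1.0 and the build mm10, but the identifiers are human. No aligner is named in the sources used here. Tables of changed genes held log2 fold changes, fold changes as linear ratios of FPKM + 1, and p-values and q-values that were not used, per the file headers. Depth per library is unknown, so no interval can be given.

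Log2 ratios used a pseudocount of 1 over the 11126 genes that reached 1 FPKM in either library, computed in Python 3.11.15 with pandas 2.3.3 and checked on simulated data. Coding and promoter alignments used Biopython 1.88. Every member is named; of each list, at most 4 genes past 2-fold are named, or the most abundant if none. Some genes that this rule names are not reported here. DNMT1, TET2, TET3, TDG, CTCF, TRIM28, PRAME, POU5F1, NANOS3 and LCP1 were chosen after their values were seen. Members and lists were chosen with earlier results of these data known. Alternatives changed the pseudocount, filter, scaling, size rule and family definition, and set members against genes of like length.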

Additional observations from a re-analysis of the deposited data

How the results depend on the processing

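No paired analysis was possible because each group has 1 library. Scaling the libraries to the same sum moved the median log2 ratio of all genes by 0.10, and to the same 75th percentile by 0.04. Under both scalings, 1 member was at least 2-fold higher and 0 lower, as reported. With a pseudocount of 0.1, 2 members were at least 2-fold higher (CTAGE5 and CTAGE15) and 2 lower (MAGEA1 and GAGE10), and with 0.5 the same 2 were lower. With the 1.5-fold rule 4 were higher and 7 lower. With at least 5 FPKM in the higher library 29 members lay within 2-fold. Without CTAGE and SSX2IP 0 members were 2-fold higher, and relative to genes of like length also 0. Leaving out or joining families and the comparison with genes of like length were chosen after seeing the data. Relative to genes of like length the family sums gave log2 ratios of -0.14 for GAGE, -0.15 for PAGE, -0.21 for XAGE, -0.061 for MAGE-D and 0.12 for CTAG, so MAGE-D and CTAG changed sign. The GAGE and XAGE sums include copies without a length, and the members of GAGE and of MAGE-D fall in more than 1 length class. A sum of several members takes the added 1 once, so it is shrunk less than its single members. CTAG and CTAGE summed together gave 0.23. The macrophage marker median, a log2 ratio of 1.67 over 3 genes, was 0.33 over genes of at least 1 FPKM in both libraries and over those of at least 5 FPKM, and the germ cell marker median, 0.13 over 2 genes, was -0.13 without a filter and over genes of at least 5 FPKM. A sum weighted by gene length was not run, since the deposited values came without lengths and GENCODE 29 gave one for 36 of the 45 members. No member has a symbol that joins gene names. The rows of GAGE12F and GAGE1 span those of GAGE12E and GAGE2A on the same strand, and whether they hold read-through transcripts was not tested. Members under 5 FPKM depend most on the pseudocount.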
